A study of Mus musculus with 12 samples.

Results

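The genes described here encode the aminoacyl-tRNA synthetases of the cytosol and of the mitochondria, with the 3 scaffold proteins that hold several of the cytosolic enzymes in 1 complex. RNA sequencing gave their messenger RNA levels in a mouse line of skeletal muscle, C2C12, labelled as myoblasts, after exposure to PFOS (perfluorooctanesulfonate, a persistent perfluorinated surfactant). The genes were chosen by name: 39 of 40 names matched a row of the count table, and the remaining name, Mars1, is the newer symbol of Mars, which was among the 39. They comprised 20 cytosolic enzymes, 16 mitochondrial enzymes (names ending in 2) and 3 scaffold proteins, out of 54532 genes in the table. All 39 were among the 16038 genes that passed the filter on low counts. The 3 groups were confluent dishes of the same line given 0, 2 or 6 µM PFOS for 24 h, with 4 libraries each. What the 0 µM dishes received in place of PFOS is not stated in the labels. The comparisons of 2 with 0 µM and of 6 with 0 µM share the same 4 untreated libraries, so their values are set side by side and not as independent evidence. The labels do not say whether the 4 libraries of each dose were separate cultures, so a p-value covers the spread among these samples alone and that spread may be technical.

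An aminoacyl-tRNA synthetase joins an amino acid to the tRNA that reads its codons, the step that gives the genetic code its meaning. Proteins encoded in the nucleus and proteins encoded in mitochondrial DNA are made with largely separate sets of these enzymes, all of them products of nuclear genes, while a single gene serves both compartments for glycine (Gars) and for lysine (Kars). When uncharged tRNA accumulates, the kinase GCN2 phosphorylates the translation initiation factor eIF2, and the transcription factor ATF4 is then translated. Many cytosolic synthetase genes are known targets of ATF4. Mutations in several synthetase genes, those for glycine and tyrosine among them, cause inherited neuropathies that weaken muscle.

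Total gene counts ranged from 30.2 to 45.6 M per library at 0 µM, from 39.8 to 50.4 M at 2 µM and from 39.8 to 44.7 M at 6 µM. No pair of libraries of a dose agreed within counting noise. The 6 myoblast markers summed to 296.4 to 358.6 CPM (counts per M counts of the library, M for mega) at 0 µM, 286.8 to 315.3 at 2 µM and 276.1 to 307.6 at 6 µM. Myod1, Myog and Cdh15 were lower at 6 than at 0 µM, and Pax7 was below the count filter. The 4 fibroblast markers, nearly all of it Col1a1, summed to 3654 to 5059, 3832 to 4422 and 3648 to 3926 CPM at the 3 doses. The 4 adipocyte markers reached at most 0.2215 CPM in sum and the 4 epithelial markers at most 0.1354, with Adipoq and Krt18 at 0 in every library. The 4 leukocyte markers summed to at most 1.575 CPM, and the 4 endothelial markers to at most 7.171 CPM, mostly Cdh5. In bulk RNA, fewer cells of a type and less RNA per cell cannot be told apart, and the part of the falling myoblast markers in the results below was not tested.

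Between 8 and 9 of the 20 cytosolic enzymes rose with PFOS, by small amounts, and 1 to 2 of the 16 mitochondrial enzymes did. At 2 µM, 8 of 20 cytosolic enzymes rose and none fell by edgeR's quasi-likelihood test (p-values adjusted by Benjamini-Hochberg over all 16038 genes), against 1.61% of all genes called higher and 0.742% called lower. At 6 µM, 9 of 20 rose and none fell, against 4.58% of all genes called higher and 3.66% called lower. Among the 2677 genes whose mean level lay in the range of the cytosolic enzymes, 83.6 to 753.2 CPM, 5.72% were higher at 2 µM and 14.3% at 6 µM. The median log2 fold change of the 20 enzymes was 0.14 at 2 µM and 0.13 at 6 µM, against -0.01 and -0.02 over all tested genes. At 2 µM 18 of 20 enzymes had a fold change above 0, and at 6 µM all 20 had.

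The CPM of the cytosolic enzymes summed to 6670, 6489, 6558 and 6228 in the 4 untreated libraries. The sums were 7170, 7059, 7075 and 7443 at 2 µM, and 7186, 7296, 7323 and 6946 at 6 µM. Every exposed library lay above every untreated one, and the mean was 1.11-fold that at 0 µM at both doses. The 15 mitochondrial enzymes other than Lars2 summed to 398.3 ± 9.85 CPM at 0 µM, 404.1 ± 9.79 at 2 µM and 409.8 ± 9.34 at 6 µM (SD, n = 4), and these ranges overlapped.

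**Figure D1:**
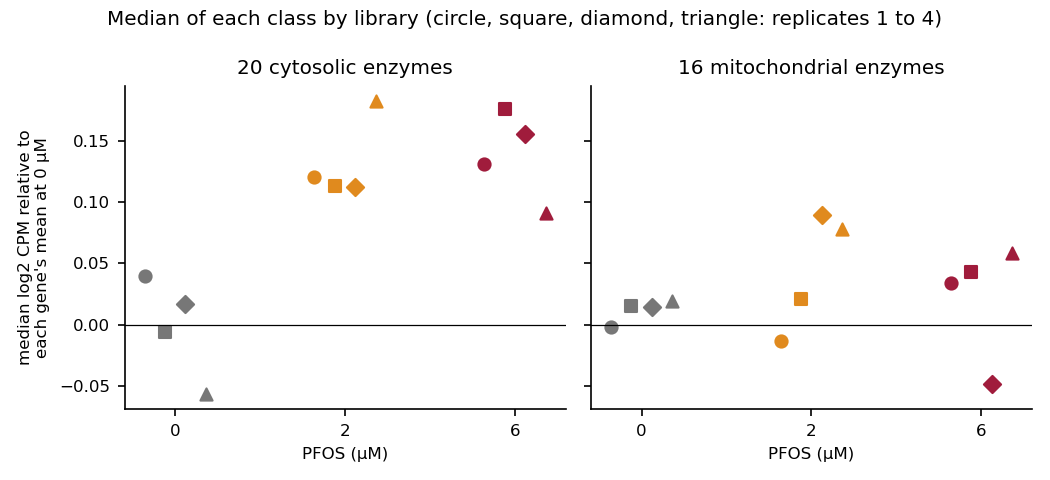
Median over the 20 cytosolic enzymes (left) and the 16 mitochondrial enzymes (right) of log2 CPM relative to each gene's mean at 0 µM (y axis), for each library by PFOS dose in µM (x axis). The cytosolic medians lie between -0.06 and 0.04 at 0 µM and between 0.09 and 0.18 at both doses of PFOS, while the mitochondrial medians overlap across doses.

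The fold changes at the 2 doses are listed gene by gene in the plot of each gene's change. No member was called lower at either dose. At an unadjusted p of 0.05, none was lower at 2 µM and 1, Mars2, was lower at 6 µM.

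**Figure D2:**
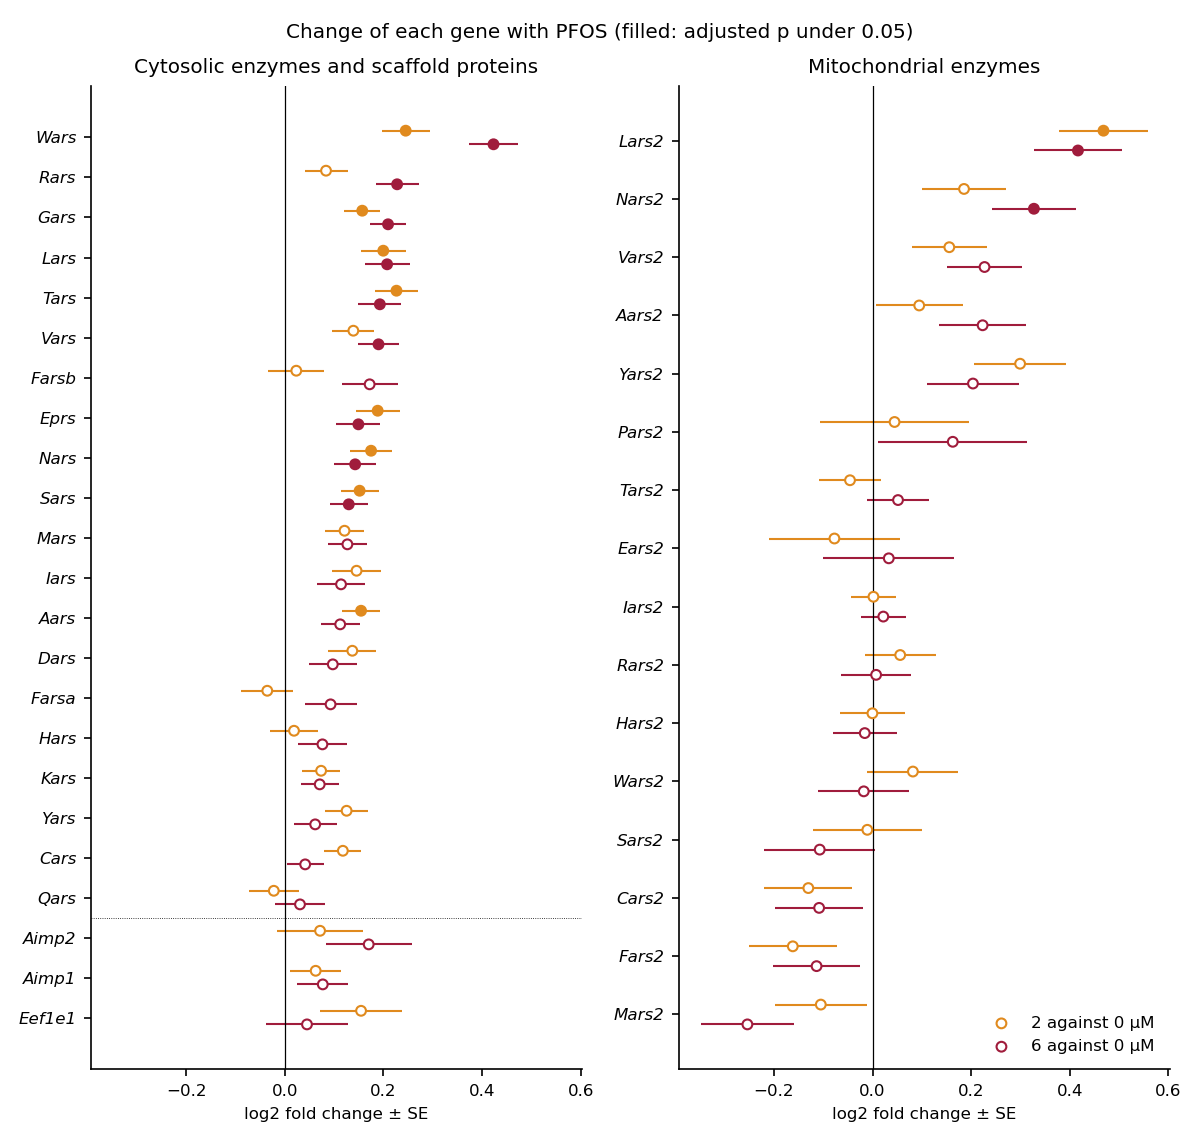
Log2 fold change ± SE (x axis) of each cytosolic enzyme and, below the dotted line, each scaffold protein (left), and of each mitochondrial enzyme (right), at 2 µM (orange) and 6 µM (red) against 0 µM. Filled points have an edgeR adjusted p under 0.05: 8 cytosolic and 1 mitochondrial enzyme at 2 µM, 9 cytosolic and 2 mitochondrial enzymes at 6 µM, all to the right of 0.

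Wars, which encodes the enzyme that charges tryptophan (ENSMUSG00000021266, chr12:108860030-108894174 on the minus strand), had the largest fold change of the cytosolic enzymes at both doses. Its level was 95.9, 89.3, 95.8 and 89.2 CPM at 0 µM, 106.9, 105.6, 110.1 and 116.4 CPM at 2 µM, and 127.9, 126.1, 127.1 and 115.5 CPM at 6 µM. Neither dose overlapped the untreated libraries, and only replicate 4 at 6 µM fell inside the range of the 2 µM libraries. The log2 fold change was 0.25 ± 0.05 (SE; edgeR adjusted p = 0.00992) at 2 µM and 0.42 ± 0.05 (adjusted p = 6.38e-06) at 6 µM, a 1.34-fold rise at the higher dose. The difference between the doses was 0.18 ± 0.05 with an edgeR adjusted p of 0.0809, and this ranged from 0.0182 to 0.276 over the alternatives tried. Without replicate 4 at 2 µM the adjusted p of Wars at 2 µM was 0.0596.

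Tars, for threonine (ENSMUSG00000022241, chr15:11382301-11399665, minus strand), had 439.8, 414.1, 425.1 and 389.1 CPM at 0 µM, 489.4, 480.1, 480.6 and 501.7 CPM at 2 µM, and 485.3, 493.9, 488.3 and 439.2 CPM at 6 µM. The 2 µM libraries were all above the untreated ones, while replicate 4 at 6 µM was just under the highest untreated library. The rise was 0.23 ± 0.04 at 2 µM (edgeR adjusted p = 0.00786) and 0.19 ± 0.04 at 6 µM (adjusted p = 0.00705). At 2 µM Tars was the only cytosolic enzyme whose call held with each of the 12 libraries left out in turn. The adjusted p of Tars was 0.067 at 2 µM without the 3 libraries numbered 4, and 0.0592 at 6 µM without the 3 libraries that deviated most from their dose (replicate 1 at 0 µM, replicates 2 and 3 at 6 µM).

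Gars, for glycine in both compartments (ENSMUSG00000029777, chr6:55038007-55079500, plus strand), had 699.9, 704.7, 708.5 and 649.4 CPM at 0 µM, 776.3, 761.6, 751.5 and 791.5 CPM at 2 µM, and 787.1, 794.4, 828.6 and 784.3 CPM at 6 µM. No exposed library overlapped the untreated ones. The log2 rise was 0.16 ± 0.04 at 2 µM (edgeR adjusted p = 0.0232) and 0.21 ± 0.04 at 6 µM (adjusted p = 0.000754). Kars, the other gene that serves both compartments, had 0.07 ± 0.04 at each dose and was called at neither.

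Lars, for leucine, had 453.8, 411.3, 434.5 and 391.3 CPM at 0 µM, 470.8, 476.5, 478.1 and 516.6 CPM at 2 µM, and 475.5, 507.2, 498.1 and 472.0 CPM at 6 µM. Every exposed library was above every untreated one. The rise was 0.20 ± 0.05 at 2 µM (edgeR adjusted p = 0.0208) and 0.21 ± 0.05 at 6 µM (adjusted p = 0.00551).

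Rars, for arginine (ENSMUSG00000018848, chr11:35808381-35834506, minus strand), was called at 6 µM only. Its level was 109.4, 102.6, 104.8 and 99.1 CPM at 0 µM, 108.3, 113.8, 109.2 and 109.4 CPM at 2 µM, and 120.6, 125.3, 122.0 and 119.3 CPM at 6 µM. The 6 µM libraries lay above all 8 others, and the 0 and 2 µM libraries overlapped. The rise at 6 µM was 0.23 ± 0.04 (edgeR adjusted p = 0.00172), and the direct difference of 6 from 2 µM was 0.14 ± 0.04 (adjusted p = 0.122). Vars, for valine (chr17:35000987-35016322, plus strand), had 403.8, 452.4, 433.1 and 459.8 CPM at 0 µM, 502.9, 469.8, 468.5 and 485.2 CPM at 2 µM, and 510.2, 479.7, 509.3 and 496.5 CPM at 6 µM. Neither dose overlapped the untreated libraries, and Vars was called at 6 µM (0.19 ± 0.04, adjusted p = 0.00609) but not at 2 µM (0.14 ± 0.04, adjusted p = 0.0914). Its difference between the doses was not called.

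**Figure D3:**
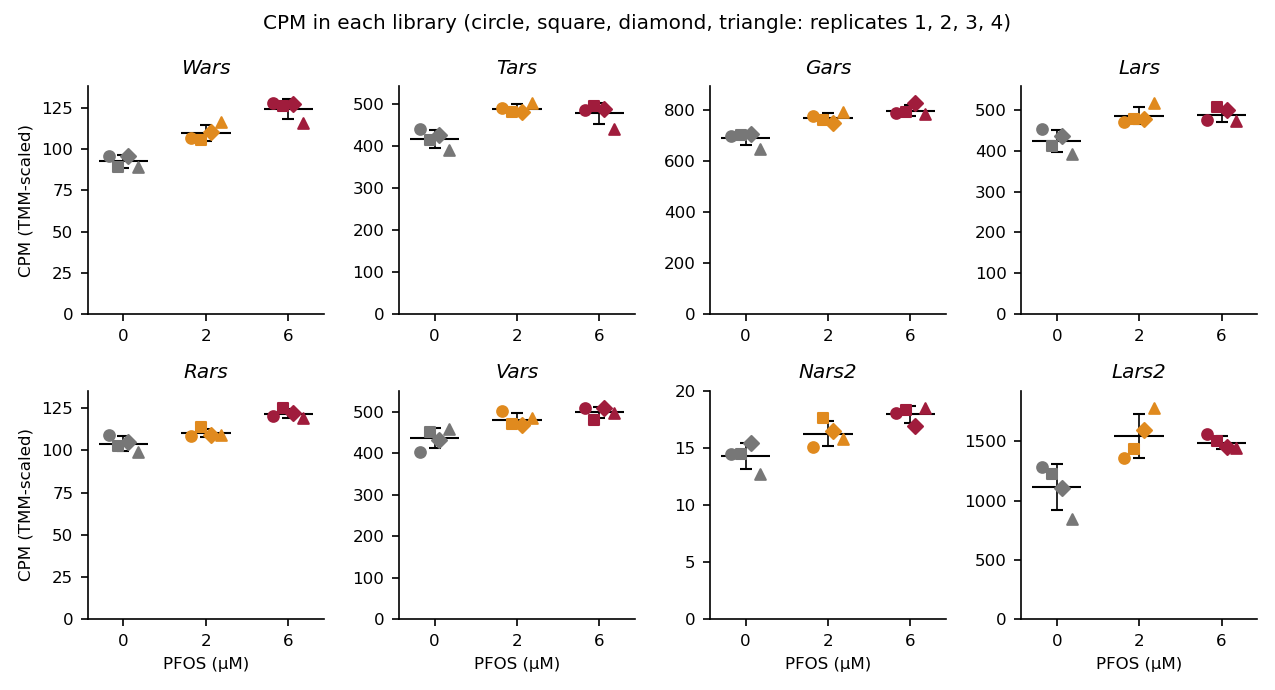
CPM (y axis, from 0) of 8 called genes in each library by PFOS dose in µM (x axis), with the mean and SD of each dose. Wars runs from 89.2 to 95.9 CPM at 0 µM and from 115.5 to 127.9 CPM at 6 µM, and Lars2 has its lowest library at 0 µM and its highest at 2 µM, both replicate 4.

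Eprs, which charges both glutamate and proline, Nars (asparagine) and Sars (serine) were called at both doses with smaller changes. Eprs had 644.4 ± 47.6 CPM at 0 µM, 734.3 ± 21.5 at 2 µM and 714.7 ± 24.2 at 6 µM (SD, n = 4), and its highest untreated library, 713.0 CPM, lay inside the 6 µM range. Nars rose by 0.18 ± 0.04 at 2 µM (edgeR adjusted p = 0.0294) and 0.14 ± 0.04 at 6 µM (adjusted p = 0.0388). Its highest untreated library, 718.9 CPM, lay above its lowest library at 6 µM, 706.8 CPM. Sars rose by 0.15 ± 0.04 at 2 µM (adjusted p = 0.0365) and 0.13 ± 0.04 at 6 µM (adjusted p = 0.0386). Aars, for alanine, was called at 2 µM only (0.15 ± 0.04, adjusted p = 0.0371), and its value at 6 µM was 0.11 ± 0.04 (adjusted p = 0.0834). The calls of Aars and Sars at 2 µM held in 3 and 4 of the 12 fits without a library, and neither gene was called between the doses.

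The 8 calls at 2 µM depended on single libraries, those numbered 4 above all. Leaving out replicate 4 at 2 µM left 1 call, leaving out replicate 4 at 0 µM left 2, and leaving out replicate 2 at 0 µM left 3. There were 4 calls without replicate 1 at 2 µM, and 5 without replicate 3 at 0 µM or without replicate 2 at 2 µM. Calls over all genes fell as well: without replicate 4 at 2 µM, 72 genes were called higher at that dose, against 258. The median log2 fold change of the 20 enzymes was then 0.12, against 0.14 with all libraries. When the 3 libraries numbered 4 were all left out, an alternative chosen after seeing the data, none of the 20 cytosolic enzymes was called at 2 µM and 8 were at 6 µM, with medians of 0.10 and 0.14. Replicate 4 was the lowest of the 4 untreated libraries for 15 of 20 cytosolic enzymes, the highest at 2 µM for 12 and the lowest at 6 µM for 12. It was also the untreated library with the fewest counts, 30.2 M, and the highest sum of myoblast markers, 358.6 CPM, and of fibroblast markers, 5059 CPM, and the part of these in the calls was not tested. At 6 µM the calls numbered 6 to 10 over the 12 fits without a library, and Wars, Gars, Lars, Rars, Vars and Tars were called in each of these fits.

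The remaining cytosolic enzymes were called at neither dose by edgeR. Of these, DESeq2 called Mars and Cars higher at 2 µM (adjusted p = 0.0332 and 0.014) and Mars and Farsb at 6 µM (0.0112 and 0.0248). Mars (methionine), whose CPM did not overlap with the untreated libraries at either dose, had 0.12 ± 0.04 at 2 µM and 0.13 ± 0.04 at 6 µM, with an edgeR adjusted p of 0.0517 at the latter. Farsa and Farsb, the subunits of the enzyme for phenylalanine, had -0.04 ± 0.05 and 0.02 ± 0.06 at 2 µM, and 0.09 ± 0.05 and 0.17 ± 0.06 at 6 µM. Iars (isoleucine), Dars (aspartate) and Yars (tyrosine) had 0.15, 0.14 and 0.13 at 2 µM and 0.11, 0.10 and 0.06 at 6 µM. Cars (cysteine) and Hars (histidine) had 0.12 and 0.02 at 2 µM and 0.04 and 0.08 at 6 µM. Qars, for glutamine, had -0.02 and 0.03 and was the enzyme with the smallest fold change at 6 µM. At 2 µM 12 of 20 cytosolic enzymes had exposed libraries that were all above the untreated ones, against 4.77% of all genes, and at 6 µM 7 had, against 6.39%. No member had all exposed libraries below the untreated ones, against 3.60% of all genes at 2 µM and 6.15% at 6 µM.

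Called enzymes were found inside and outside the multi-tRNA synthetase complex and in both structural classes. Of the 8 enzymes that belong to the complex, 2 rose at 2 µM (Eprs and Lars) and 3 at 6 µM (Eprs, Lars and Rars), with medians of 0.13 and 0.12. Of the 12 outside it, 6 rose at each dose, with medians of 0.15 and 0.14. Class I enzymes, which share a Rossmann-fold catalytic domain, had 3 of 10 called at 2 µM and 5 of 10 at 6 µM. Eprs, which charges both glutamate and proline, was counted in class I alone. Class II enzymes, built around an antiparallel sheet, had 5 and 4 of 10. No test of the difference between these groups was made. The scaffold proteins Aimp1, Aimp2 and Eef1e1 were not called at either dose by edgeR, also at an unadjusted p of 0.05. Their log2 fold changes were 0.06, 0.07 and 0.15 at 2 µM and 0.08, 0.17 and 0.05 at 6 µM. Aimp2 had 22.4, 22.7, 23.4 and 22.9 CPM at 0 µM and 25.6, 23.5, 24.6 and 29.1 CPM at 6 µM, without overlap. Of the exonic bases of Aimp2, 29.4% lie opposite exons of Eif2ak1, whose mean was 25.95 CPM at 0 µM and 24.02 CPM at 6 µM. The part of this overlap in the values was not tested.

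None of the 39 genes differed between 6 and 2 µM by edgeR's test, against 0.561% of all genes called higher and 0.549% called lower. At an unadjusted p of 0.05, 4 were higher at 6 µM (Farsa, Farsb, Rars and Wars) and none lower. DESeq2 called Rars and Wars higher, limma-voom called none, and a fit of the 8 libraries of these doses alone called Wars. The median log2 difference was 0.00 for the cytosolic and 0.02 for the mitochondrial enzymes. Farsb and Rars had all 6 µM libraries above all 2 µM libraries, and Cars had them all below. All genes without overlap made up 4.45% higher and 4.15% lower in this comparison.

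Of the mitochondrial enzymes, which were measured less precisely, 1 of 16 rose at 2 µM (Lars2) and 2 of 16 at 6 µM (Lars2 and Nars2), with medians of 0.02 and 0.03. Among the 7770 genes in the level range of the 15 enzymes other than Lars2, 6.34 to 98.5 CPM, 1.33% were higher at 2 µM and 4.20% at 6 µM. The median SE of a log2 fold change was 0.09 for the 16 mitochondrial enzymes and 0.04 for the 20 cytosolic ones, and the median levels were 22.3 and 297.0 CPM. Per kilobase of the gene length in the table, untreated levels of the cytosolic enzymes ran from 18.6 CPM per kb (Qars) to 260.0 (Nars), and those of the mitochondrial enzymes from 1.24 (Ears2) to 11.0 (Iars2), with Lars2 apart at 101.0.

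Nars2, the mitochondrial enzyme for asparagine (ENSMUSG00000018995, chr7:96951505-97064758, plus strand), had 14.5, 14.5, 15.5 and 12.8 CPM at 0 µM, 15.1, 17.7, 16.5 and 15.8 CPM at 2 µM, and 18.1, 18.3, 16.9 and 18.6 CPM at 6 µM. The 6 µM libraries lay above all untreated ones, and the 2 µM libraries overlapped both. The rise at 6 µM was 0.33 ± 0.09 (edgeR adjusted p = 0.0189), and the value at 2 µM was 0.19 ± 0.09 (adjusted p = 0.326). At 6 µM the adjusted p was 0.0583 without replicate 4 at 0 µM and 0.0517 without replicate 4 at 6 µM. In the annotation 284 of its exonic bases lie opposite the transcript C230038L03Rik.

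Lars2, the mitochondrial enzyme for leucine (ENSMUSG00000035202, chr9:123366927-123462666, plus strand), was the member with the highest CPM. Its level was 1286, 1228, 1109 and 843.1 CPM at 0 µM, 1360, 1437, 1597 and 1785 CPM at 2 µM, and 1562, 1502, 1455 and 1442 CPM at 6 µM. Every exposed library was above every untreated one. The log2 rise was 0.47 ± 0.09 at 2 µM (edgeR adjusted p = 0.00762) and 0.42 ± 0.09 at 6 µM (adjusted p = 0.00452), and both calls held in each alternative tried. Lars2 alone made up most of the mitochondrial sum, which was 1515 ± 189 CPM at 0 µM and 1949 ± 197 at 2 µM (SD, n = 4).

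A Lars2 transcript shares a stretch of 72 bases at 98.6% identity with Gm15564 and a stretch of 50 bases at 96.0% identity with AA474408, so reads from these could be exchanged. Gm15564 had 3.21, 2.12, 1.95 and 1.66 CPM at 0 µM, 2.58, 3.06, 2.75 and 4.19 CPM at 2 µM, and 3.04, 2.78, 2.43 and 3.05 CPM at 6 µM. Its lowest and highest libraries were those of Lars2, replicate 4 at 0 µM and replicate 4 at 2 µM, although its doses overlapped and it was called at neither. AA474408 had 0.80, 0.97, 0.70 and 0.78 CPM at 0 µM, 0.28, 0.72, 0.86 and 0.47 CPM at 2 µM, and 0.30, 1.20, 0.07 and 0.91 CPM at 6 µM. Its log2 fold changes were -0.48 ± 0.58 at 2 µM and -0.39 ± 0.58 at 6 µM, with overlapping doses and no call. Over the 12 libraries the mean level was 1384 CPM for Lars2, 2.74 CPM for Gm15564 and 0.67 CPM for AA474408. The part of such shared sequence in the values of Lars2 was not tested.

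**Figure D4:**
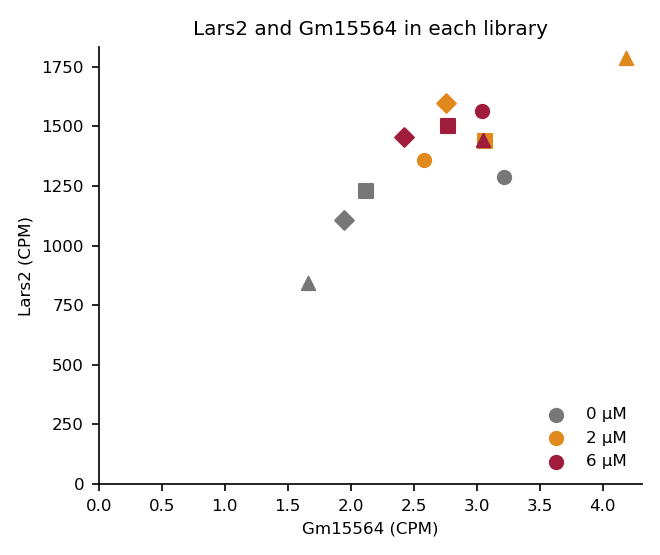
Lars2 (y axis, CPM) against Gm15564 (x axis, CPM) in the 12 libraries, coloured by PFOS dose, with circle, square, diamond and triangle for replicates 1 to 4. Replicate 4 at 0 µM is lowest in both (843.1 and 1.66 CPM) and replicate 4 at 2 µM is highest in both (1785 and 4.19 CPM).

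The other 14 mitochondrial enzymes were called at neither dose. Yars2 (tyrosine) had 16.3, 17.3, 15.1 and 15.4 CPM at 0 µM and 19.8, 19.5, 19.9 and 19.7 CPM at 2 µM, without overlap, but its edgeR adjusted p was 0.104 (0.0395 by DESeq2 and 0.0431 without replicate 3 at 6 µM). At 6 µM its libraries read 19.8, 19.6, 14.6 and 19.8 CPM, with replicate 3 below every untreated library, and without that library its adjusted p at 6 µM was 0.0298. Vars2 (valine) had 23.1, 28.7, 29.7 and 29.0 CPM at 0 µM and 30.7, 31.0, 34.2 and 33.5 CPM at 6 µM, without overlap (0.23 ± 0.08, adjusted p = 0.0705, and 0.0346 by DESeq2). Aars2 (alanine) had 0.22 ± 0.09 at 6 µM (adjusted p = 0.129, and 0.0394 without replicate 2 at 6 µM). Mars2 (methionine) had the lowest fold change at 6 µM, -0.25 ± 0.09 (adjusted p = 0.105), and without replicate 2 at 0 µM its adjusted p was 0.0228. Fars2, Cars2 and Sars2 had values of -0.16, -0.13 and -0.01 at 2 µM and -0.11, -0.11 and -0.11 at 6 µM. Iars2, Hars2, Rars2, Tars2, Wars2, Ears2 and Pars2 lay between -0.08 and 0.08 at 2 µM and between -0.02 and 0.16 at 6 µM.

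The cytosolic and the mitochondrial enzyme for the same amino acid were also compared within each library. For 16 pairs in 3 comparisons, 48 tests in all, the log2 ratio of the enzymes was compared between doses with a two-sided exact permutation test of 4 against 4 libraries, for which 0.0286 is the smallest possible p. The smallest value after Benjamini-Hochberg adjustment over the 48 tests was 0.152. No pair could have passed 0.05 unless at least 28 of the 48 tests reached the smallest possible p, so the absence of a called pair says little about the ratios, and the changes are given as values. The change of the ratio was above 0 in 12 of 16 pairs at 2 µM and in 10 of 16 at 6 µM. The largest was for Wars over Wars2 at 6 µM, where the CPM ratio went from 4.4 to 5.95 (difference 0.44, exact p = 0.0286 before adjustment) without overlap. At 6 µM Rars over Rars2 (0.22) and Hars over Hars2 (0.09) also had higher ratios in every exposed library. Nars over Nars2 went the other way, from 47.8 to 42.0 (difference -0.19). At 2 µM the ratios without overlap were Eprs over Ears2 (0.26) and Yars over Yars2 (-0.18).

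**Figure D5:**
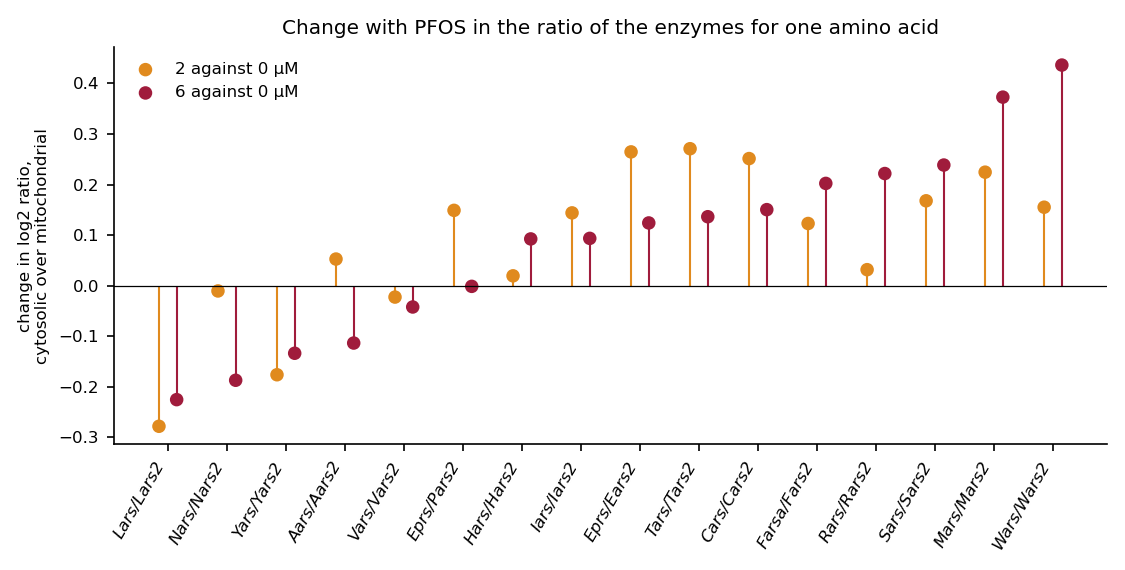
Change from 0 µM in the mean log2 ratio of cytosolic to mitochondrial CPM (y axis) for each of 16 enzyme pairs (x axis), at 2 µM (orange) and 6 µM (red). Values run from -0.28 (Lars over Lars2, 2 µM) to 0.44 (Wars over Wars2, 6 µM), and the adjusted test, which could hardly have called a single pair, called none.

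The promoters of these genes were searched for the letters of a site that ATF4 is known to bind with C/EBP partners, TGATGNAA on either strand, because many cytosolic synthetases are known ATF4 targets. RefSeq promoters (GRCm38.p6, 250 bases before to 50 after the start) were at hand for 13 of 20 cytosolic enzymes, 14 of 16 mitochondrial enzymes and the 3 scaffold proteins. The cytosolic enzymes without a promoter were Cars, Hars, Lars, Nars, Rars, Vars and Wars. Among them, Lars, Nars and Wars were called at both doses, Rars and Vars at the higher dose only, and Cars and Hars at neither. Many called enzymes could thus not be searched, and matches cannot be compared with calls over the whole set. Counted by gene, the letters occurred in 5 of the 13 cytosolic, 0 of the 14 mitochondrial and 0 of the 3 scaffold genes. The share was 4.51% over all 27025 genes with a promoter of this length. Of these 5 genes, Gars and Tars were called at both doses, Aars at 2 µM, and Iars and Yars at neither. Eprs and Sars, also called at both doses, had a promoter at hand but no match. The first match began at -112 in Aars, which had another at 10, at -30 in Gars, at -15 in Tars, at 8 in Iars and at 4 in Yars, counted on the gene's strand from 1 at the RefSeq start. The E-box CACGTG, a palindrome, was in the promoters of 4 cytosolic genes and 1 mitochondrial gene, against 8.09% of all genes with a promoter. A match describes these letters only, and no match says nothing about the factor. The 130 bases before and 20 after the start are shown for the 5 promoters with a match, with the match in capitals as it reads on the gene's strand, and for Sars, called at both doses, whose promoter had none.
Aars (chr8:111033712-111033861, plus strand): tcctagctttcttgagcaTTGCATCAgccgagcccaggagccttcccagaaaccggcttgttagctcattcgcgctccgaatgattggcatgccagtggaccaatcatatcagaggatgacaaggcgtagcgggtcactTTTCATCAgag
Gars (chr6:55037871-55038020, plus strand): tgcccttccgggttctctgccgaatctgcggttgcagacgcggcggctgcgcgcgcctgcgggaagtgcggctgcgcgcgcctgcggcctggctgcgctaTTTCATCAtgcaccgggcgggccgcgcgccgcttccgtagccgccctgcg
Tars (chr15:11399639-11399788, minus strand): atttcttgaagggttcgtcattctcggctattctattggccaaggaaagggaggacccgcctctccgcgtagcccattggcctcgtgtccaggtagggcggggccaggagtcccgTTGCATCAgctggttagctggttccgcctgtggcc
Iars (chr13:49682000-49682149, plus strand): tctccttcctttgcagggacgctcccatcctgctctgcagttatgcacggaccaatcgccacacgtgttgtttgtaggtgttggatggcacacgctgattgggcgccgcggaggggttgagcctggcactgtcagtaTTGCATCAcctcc
Yars (chr4:129189773-129189922, plus strand): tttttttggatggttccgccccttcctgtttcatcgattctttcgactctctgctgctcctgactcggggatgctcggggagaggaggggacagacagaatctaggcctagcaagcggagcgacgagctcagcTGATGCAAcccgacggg
Sars (chr3:108445240-108445389, minus strand): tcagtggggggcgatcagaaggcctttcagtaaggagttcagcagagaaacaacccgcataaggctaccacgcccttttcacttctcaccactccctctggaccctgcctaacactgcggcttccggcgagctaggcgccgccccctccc
In Aars, Gars, Tars and Iars the capitals read as the reverse complement of the searched letters, and in Yars they read in the searched direction.

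The transcription factor Atf4 itself was higher at both doses, by 0.16 ± 0.04 at 2 µM (edgeR adjusted p = 0.0245) and 0.17 ± 0.04 at 6 µM (adjusted p = 0.00443). Its libraries read 894.9, 954.9, 964.7 and 878.9 CPM at 0 µM, 1037, 1034, 1003 and 1039 CPM at 2 µM, and 1052, 1032, 1068 and 1003 CPM at 6 µM, without overlap with the untreated ones. Among 24 tested genes of a list of Atf4 and its known targets other than synthetases, 11 rose and none fell at 2 µM, and 9 rose and 1 fell at 6 µM, with medians of 0.18 and 0.16. Over all tested genes 1.61% were called higher and 0.742% lower at 2 µM, and 4.58% and 3.66% at 6 µM. Between 6 and 2 µM none of the 24 was higher, also at an unadjusted p of 0.05, and Chac1 and Nupr1 were lower, with a median of -0.05. Atf3, a stress-induced transcription factor, rose by 0.80 ± 0.10 and 0.64 ± 0.10, and Ppp1r15a, which directs dephosphorylation of eIF2 alpha, by 0.78 ± 0.09 and 0.48 ± 0.09. Shmt2, of mitochondrial serine and folate metabolism, rose by 0.17 ± 0.04 and 0.21 ± 0.04. Chac1, which degrades glutathione, fell by 0.24 ± 0.05 on the log2 scale at 6 µM. Of 7 kinases and regulators upstream, the test called none at 2 µM and only Impact, an inhibitor of GCN2 activation, at 6 µM, where it fell.

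Other genes of tRNA charging and of translation were mostly not called, apart from the cytosolic elongation factors at 6 µM. Of 15 further genes that act on aminoacyl-tRNA, only Xpot, the exporter of tRNA from the nucleus, rose, by 0.16 ± 0.04 at 2 µM (edgeR adjusted p = 0.0365) and 0.21 ± 0.04 at 6 µM (adjusted p = 0.00172). Of 6 cytosolic elongation factors, none was called at 2 µM, also at an unadjusted p of 0.05, and 3 rose at 6 µM (Eef1a1, Eef2 and Eif5a, by 0.15, 0.12 and 0.16). At 6 µM all 6 had a fold change above 0, with a median of 0.11, against 0.13 for the cytosolic synthetases. Of 8 mitochondrial translation factors, none was called at 2 µM, and Gfm2 rose at 6 µM by 0.25 ± 0.07. Among all tested genes 1.61% were called higher at 2 µM and 4.58% at 6 µM.

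Some members share exons or sequence with other genes, and no source used here gives the strand setting of the counting. Of the exonic bases of Aars, 14.3% are also exons of Exosc6 on the same strand. Of those of Iars2, 22.9% lie opposite Rab3gap2, and of those of Farsb, 9.47% lie opposite Sgpp2. Hars and Hars2 start head to head and share 195 bases. Mars and Ddit3, which encodes the stress factor CHOP, share 68 bases end to end. An Iars transcript matches Gm4849 over 1656 bases at 96.0% identity. Reads from these stretches could be counted for either gene.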

How the data were processed

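Messenger RNA of C2C12 cells was sequenced in 12 libraries, grouped by the PFOS dose in their titles. The deposited values are raw counts of reads per gene, whole numbers in a single table. The submitters' processing notes name HISAT2 as the tool and GRCm39 as the build. No source used here gives the counting program, strand setting or annotation. Positions in the table equal those of GENCODE M21 on GRCm38 for 98.3% of shared genes, so coordinates are named GRCm38.

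The main test was run in R 4.3.3 with edgeR 4.0.16: TMM scaling, filterByExpr by dose (16038 genes kept) and a quasi-likelihood test. The model held a mean for each dose, was fitted to the 12 libraries together and left 9 residual degrees of freedom. Genes with a Benjamini-Hochberg adjusted p under 0.05 were called. Standard errors (SE) are the absolute log2 fold change over the square root of F. The common biological coefficient of variation was 10.8%. CPM used TMM-scaled library sizes, and pair ratios used log2 CPM with a prior count of 2. Medians and counts of a list are descriptions, not tests. DESeq2 1.42.0, limma-voom (limma 3.58.1), other scalings, filters, a replicate block and fewer libraries were alternatives, and the steps were tested on simulated data. Overlaps and near-identical stretches came from GENCODE M21, promoters from RefSeq.

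All members are accounted for; those called in a comparison or without overlap between doses were named with values where a result turned on them, and, of other genes, Atf4 and up to 4 called genes per list with the smallest adjusted p. Markers and genes sharing exons or sequence with members were named outside that rule. Members and lists were chosen with earlier results of these data known. Equal replicate numbers did not pair the samples.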

Additional observations from a re-analysis of the deposited data

Results flagged for a closer look

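In 10 of 117 groups of 4 libraries (39 genes at 3 doses), 1 library stood apart from the other 3, by a gap, relative to the group's range, above Dixon's 95% critical value for 4 samples. Chance flags about 1 in 20 groups. Of the 10, 8 were replicate 4 of a dose. At 2 µM replicate 4 was above the others for Eprs (766.4 CPM against 721.5 to 727.0), Lars (516.6 against 470.8 to 478.1), Sars (685.8 against 632.0 to 638.0) and Iars2 (103.2 against 95.7 to 96.8). At 0 µM replicate 4 was below the others for Gars (649.4 CPM against 699.9 to 708.5) and above them for Fars2 (19.2 against 15.7 to 16.2). At 6 µM it was below the others for Tars (439.2 CPM against 485.3 to 493.9) and Wars (115.5 against 126.1 to 127.9). Replicate 1 at 0 µM was low for Vars2 (23.1 CPM against 28.7 to 29.7), and replicate 3 at 6 µM was low for Yars2 (14.6 against 19.6 to 19.8).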

How the results depend on the processing

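No called synthetase changed sign under an alternative. The medians between 6 and 2 µM, near 0, did: -0.03 for the cytosolic enzymes without the 3 libraries that deviate most, and below 0 in some fits without a library. Upper-quartile scaling turned the balance over all genes at 6 µM from 735 higher and 587 lower to 598 and 662. At 2 µM, 5 cytosolic enzymes were called higher with upper-quartile scaling, 6 with the replicate block and 11 by DESeq2, which called 2 mitochondrial enzymes. Some calls at 6 µM were lost too. With upper-quartile scaling the edgeR adjusted p there was 0.0663 for Eprs, 0.0666 for Nars and 0.0671 for Sars. Without the 3 libraries that deviate most it was 0.171 for Nars, 0.226 for Sars and 0.0592 for Tars. Between 6 and 2 µM, DESeq2 called 2 cytosolic enzymes higher and the fit of those 2 doses alone called 1. Without the 3 libraries that deviate most, 1 mitochondrial enzyme was called at 6 µM, with a median of 0.0768. Without the 3 libraries numbered 4, chosen after seeing the data, 0 cytosolic enzymes were called at 2 µM (median 0.10) and 1 mitochondrial enzyme at 6 µM. The cause of these shifts was not tested.

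Over all genes, 518 were higher and 224 lower at 2 µM by DESeq2, 438 and 193 without a filter, and 45 and 8 without the libraries numbered 4. At 6 µM, 408 were higher and 302 lower without the 3 most deviating libraries, and 390 lower without those numbered 4. Between 6 and 2 µM, 229 were higher and 216 lower by DESeq2, 177 and 224 without a filter, 174 and 133 with these doses alone, and 28 and 24 without the libraries numbered 4. Lower calls there were 55 without the 3 most deviating libraries and 54 with the replicate block. Deviations of libraries with the same number correlated between -0.028 and 0.037, so the numbers do not pair the samples.

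Leaving out each library in turn, called cytosolic enzymes ranged from 1 to 8 at 2 µM and from 6 to 10 at 6 µM, with 0 between the doses. Their medians ranged from 0.12 to 0.15 at 2 µM, from 0.11 to 0.15 at 6 µM and from -0.01 to 0.02 between the doses. Mitochondrial enzymes called higher ranged from 1 to 2 at 2 µM and from 1 to 3 at 6 µM, with 0 to 1 lower at 6 µM, and their medians from 0.00 to 0.05, from 0.01 to 0.06 and from -0.01 to 0.03. Over all genes, 72 to 322 were higher and 34 to 168 lower at 2 µM, 513 to 789 and 398 to 592 at 6 µM, and 45 to 138 and 33 to 121 between the doses. For the pair ratios, the sign flips of the block cannot pass the threshold, and 3 against 4 libraries could hardly have passed it. Neither says anything about stability.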
